A study of Mus musculus with 8 samples.

Results

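The genes that make, use and recycle glutathione, the enzymes that remove peroxides and superoxide, and the metallothioneins were followed in mouse lung after ozone. The list named 47 genes, and every probe set whose array annotation names 1 of them alone was taken, older symbols included. This gave 53 probe sets of 41 genes, out of 12422 probe sets on the array once controls were set aside. Another 6 listed genes (Ggt1, Gstm4, Prdx1, Prdx5, Prdx6 and G6pdx) had no probe set of their own by this rule. RNA of frozen whole lung was read on Affymetrix arrays of short DNA probes. There were 2 arrays of C3H/HeJ mice in ozone and 2 of C3H/HeJ mice in filtered air, and likewise 2 of C3H/HeOuJ mice in ozone and 2 in filtered air. C3H/HeJ is the substrain with a missense mutation of Tlr4, the receptor for endotoxin, and C3H/HeOuJ is a related substrain with the intact receptor. An exposure of 72 h is stated for the C3H/HeOuJ groups, and no exposure time for the C3H/HeJ groups. Strain and exposure time therefore cannot be told apart where the strains are compared. Neither an ozone concentration nor the age of the mice is given. The labels do not say whether the 2 arrays of a group hold different animals, so the tests read the spread between arrays, which could be technical, and the small number of arrays limits their precision.

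Glutathione is the main small thiol of cells and is also plentiful in the fluid that lines the lung. It is built by glutamate-cysteine ligase and glutathione synthase, spent by glutathione peroxidases and transferases, and restored from its oxidised form by glutathione reductase. Ozone reacts with lipids and antioxidants of the lining fluid, and many genes of this system are targets of NRF2, the product of Nfe2l2, which KEAP1 holds at a low level until electrophiles or oxidants modify it. NRF2 acts through antioxidant response elements, and the metallothioneins, small cysteine-rich proteins that bind zinc and copper, are switched on through metal response elements by the factor MTF1.

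The lungs carried their defining markers on every array, with summed intensities of the club cell markers between 58565 and 95404 and of the type 2 cell markers between 61363 and 114919. The HeOuJ ozone arrays stood apart, and also differed most from each other. The rank correlation of the pair was 0.931, against 0.952 to 0.961 in the other groups. Median intensity was 386 on HeOuJ ozone 1a and 351 on HeOuJ ozone 1b, against 353 to 364 on the arrays of the other groups. The actin 5'/3' intensity ratio, which reads how complete the RNA and its copies are, was 0.766 and 0.756 in HeOuJ ozone, against 0.432 to 0.603 on the other 6 arrays. The same ratio of Gapdh was 1.34 and 1.18 in HeOuJ ozone, against 0.775 to 1.06 on the other 6. That of the transferrin receptor did not set the group apart, at 0.490 and 0.289, against 0.184 to 0.518 on the other 6. Marker sums, given from the lower to the higher array, also differed in that group. Type 2 cell markers (3 of 6 measured) summed to 67247 and 74506 in HeJ ozone, against 70035.5 and 84633 in HeJ air, and to 104654 and 114919 in HeOuJ ozone, against 61363 and 78497 in HeOuJ air. That HeOuJ difference was carried by Sftpc, with 100639 and 77498 in HeOuJ ozone, against 55299 and 39537 in HeOuJ air, while the groups overlapped for Sftpb and Sftpd, whose means were lower in HeOuJ ozone. Markers of dividing cells (4 of 5 measured) summed to 1573 and 1589 in HeJ ozone, against 912 and 1247 in HeJ air, and to 1783 and 1931 in HeOuJ ozone, against 728 and 741 in HeOuJ air. Erythroid markers (4 of 9 measured) summed to 43697 and 46806 in HeJ ozone, against 35089 and 48095 in HeJ air, and to 54579 and 76614 in HeOuJ ozone, against 38313 and 43786 in HeOuJ air. Here the difference was that of Hba-a1, a haemoglobin chain, with 68779 and 44782 in HeOuJ ozone, against 33824 and 29657 in HeOuJ air, while Slc4a1 and Alas2 had lower means in HeOuJ ozone. Alveolar macrophage markers (5 of 7 measured, 2 of their 6 probe sets at the floor on all arrays) summed to 4591 and 5115 in HeJ ozone, against 6048 and 6152 in HeJ air, and to 6041 and 6985 in HeOuJ ozone, against 9023 and 10603 in HeOuJ air. Chil3 carried most of that HeOuJ difference, with 2719 and 2459 in HeOuJ ozone, against 7031 and 4978 in HeOuJ air, and the measurable Cd68 probe set ran the other way, with 2405 and 1932 in HeOuJ ozone, against 1481 and 1773 in HeOuJ air. Club cell markers (2 of 4 measured) summed to 93199 and 95404 in HeOuJ ozone, against 58565 and 81678 in HeOuJ air. In C3H/HeJ their sums overlapped, with 59114 and 79373 in ozone, against 69374 and 90757 in air. Type 1 cell markers (2 of 4 measured) summed to 37695 and 41755 in HeOuJ ozone, against 32960.1 and 33387 in HeOuJ air. In C3H/HeJ they went the other way, with 30784 and 35229.5 in ozone, against 35312 and 39773 in air. B and plasma cell markers (5 of 7 measured) summed to 9818 and 9937 in HeJ ozone, against 16494 and 16761 in HeJ air. The largest part of that difference was on an Ighm probe set, at 3609 and 3482, against 7235 and 7226. In C3H/HeOuJ these sums went the other way, with 13517 and 15374 in ozone, against 12431 and 13196 in air. Fat markers (3 of 5 measured) summed to 2384 and 2416 in HeJ ozone, against 1327 and 1363 in HeJ air. A Lep probe set carried this, with 1665 and 1578 in HeJ ozone, against 539 and 605 in HeJ air. Adipoq, Fabp4 and the other Lep probe set overlapped there. The part of cell makeup in the values below was not tested, and in whole lung fewer cells of a type and less RNA per cell cannot be told apart.

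Of the 53 probe sets, 50 (40 genes) were bright enough to test, meaning above the intensity of 69.6 used as floor on at least 2 arrays, and 47 of them were above it on all 8. The other 3, a Gsta1, a Gstm5 and a Prdx2 probe set, were left out. None of the 50 passed an adjusted p of 0.05 in any of 7 comparisons by limma, in which p-values were adjusted over all 10953 probe sets tested. At an unadjusted p under 0.05, the ozone comparison took 0 of the 50 in C3H/HeJ and 16 in C3H/HeOuJ. Of all probe sets it took 2.36% on the higher and 1.99% on the lower side in C3H/HeJ. In C3H/HeOuJ these shares were 7.77% and 7.73%. The share of all probe sets called at the adjusted threshold was 0.0% for ozone in C3H/HeJ and 0.456% for ozone in C3H/HeOuJ. It was 0.0183% for the mean ozone effect and 0.0% for the interaction. For C3H/HeJ minus C3H/HeOuJ it was 0.977% in ozone, 0.0456% in air and 0.155% over both exposures. Values below are therefore descriptions of these arrays.

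**Figure D1:**
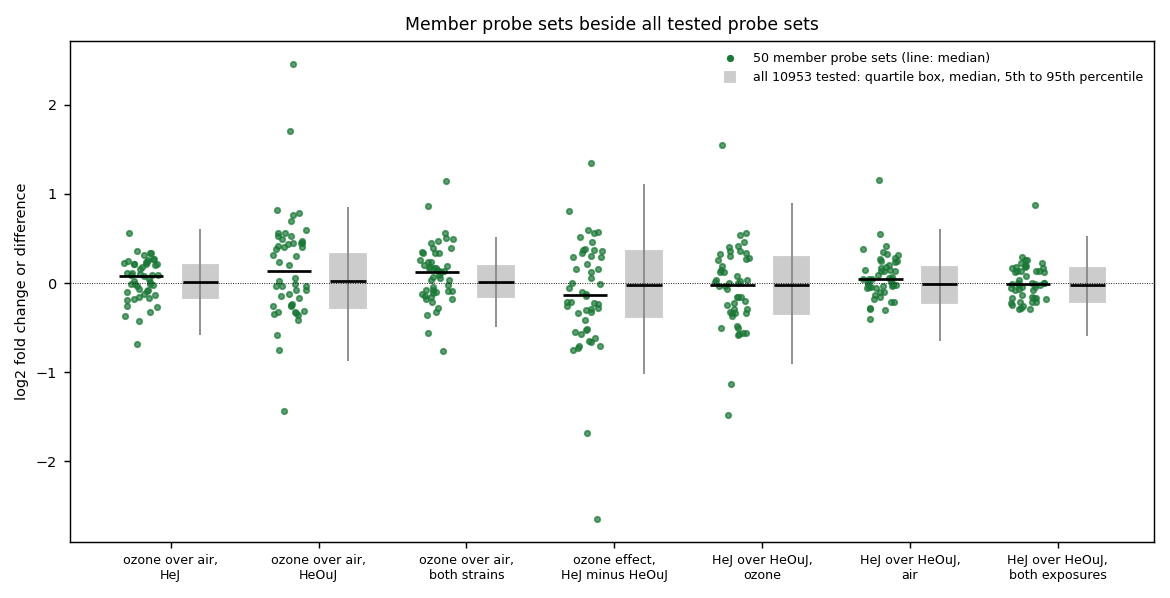
Log2 fold changes or differences in the 7 comparisons, with the 50 probe sets of the list as points (line, median) beside all 10953 tested (box, quartiles; line, median; whisker, the 5th to the 95th percentile). For ozone over air, the medians of the list were 0.08 in C3H/HeJ and 0.13 in C3H/HeOuJ, against 0.01 and 0.02 over all probe sets.

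In C3H/HeOuJ the members leaned to the higher side in ozone at the unadjusted threshold. The members were chosen with earlier results of these data known, so this lean is no independent result. At an unadjusted p under 0.05, 13 of the 50 were higher and 3 lower, against 7.77% and 7.73% of all probe sets. Both ozone arrays lay above both air arrays for 21 of the 50 and below them for 10, against 22.3% and 19.5% of all probe sets. In C3H/HeJ the arrays lay apart for 13 on the higher side and 4 on the lower, against 18.4% and 16.0% of all probe sets. The median fold change of the list, 0.13 on the log2 scale in C3H/HeOuJ, was small beside the single genes described next.

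Among the genes of glutathione synthesis, Gclm encodes the modifier subunit that raises the activity of glutamate-cysteine ligase. It had intensities of 765 and 842 in HeJ ozone, against 778 and 704 in HeJ air, and of 981 and 1097 in HeOuJ ozone, against 560.2 and 617 in HeOuJ air. The HeJ groups overlapped and the HeOuJ groups did not. The log2 fold change was 0.12 (SE 0.18) in C3H/HeJ and 0.82 (SE 0.18, limma adjusted p = 0.0939) in C3H/HeOuJ. Gclc, the catalytic subunit, had 1198 and 1189 in HeJ ozone, against 1195 and 1363 in HeJ air, and 2167 and 1425 in HeOuJ ozone, against 1266 and 1336 in HeOuJ air. The HeJ groups overlapped, and both HeOuJ ozone arrays were above both HeOuJ air arrays, with log2 fold changes of -0.10 (SE 0.20) in C3H/HeJ and 0.43 (SE 0.20, limma adjusted p = 0.344) in C3H/HeOuJ. The HeOuJ value rested on 1 array, since without HeOuJ ozone 1a the fold change was 0.13 and without HeOuJ ozone 1b 0.74.

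The enzyme that recycles oxidised glutathione, Gsr, lay between 1305 and 1897 over the 8 arrays, with a log2 fold change in C3H/HeOuJ of 0.41 (SE 0.14, limma adjusted p = 0.227) and no overlap of the arrays. Abcc1, a pump that exports glutathione conjugates, lay between 163 and 288 over the 8 arrays. Its log2 fold changes were almost equal, 0.57 in C3H/HeJ and 0.56 in C3H/HeOuJ (SE 0.34 each), and all 4 ozone arrays lay above all 4 air arrays. Glrx, a glutaredoxin that removes glutathione from proteins, had a negative value in C3H/HeOuJ, -0.26 (SE 0.15), with both ozone arrays below both air arrays. Slc7a11, the cystine transporter that supplies the cysteine for glutathione, was dim, between 40.8 and 146 on all arrays. The 2 probe sets of Gss, glutathione synthase, gave 0.30 and -0.03 in C3H/HeOuJ, and neither separated the groups.

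The window before the start of Gclm is shown because this gene had the largest fitted HeOuJ value among the synthesis genes. It is the 250 bases upstream of the RefSeq start at chr3:122245307-122245556 of GRCm38.p6, plus strand, credited to RefSeq. Capitals mark matches on either strand to the antioxidant response core TGACNNNGC and the metal response core TGCACNC or TGCGCNC; 1 match of each kind shares bases, and the second metal match stands alone.
Gclm: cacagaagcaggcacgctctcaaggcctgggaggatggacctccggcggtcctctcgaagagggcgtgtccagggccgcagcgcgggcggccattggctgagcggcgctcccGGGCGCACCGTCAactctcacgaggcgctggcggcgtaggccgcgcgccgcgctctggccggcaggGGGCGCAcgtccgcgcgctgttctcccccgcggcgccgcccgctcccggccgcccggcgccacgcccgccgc

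The transferases, which couple glutathione to electrophiles, included the 3 probe sets of smallest p among the members, all for ozone in C3H/HeOuJ. Gsto1, an omega-class transferase that also reduces dehydroascorbate, had 2616 and 2924 in HeJ ozone, against 2555 and 2206 in HeJ air, and 3556 and 4309.9 in HeOuJ ozone, against 2402 and 2208 in HeOuJ air. The log2 fold changes were 0.22 (SE 0.15) in C3H/HeJ and 0.77 (SE 0.15, limma adjusted p = 0.0695) in C3H/HeOuJ. Each of the 4 ozone arrays was above each of the 4 air arrays. Gstt1, a theta-class transferase, had 2631 and 2426 in HeJ ozone, against 2353 and 2018 in HeJ air, and 3681 and 2752 in HeOuJ ozone, against 1773 and 1914 in HeOuJ air. It too separated ozone from air across both strains, at 0.21 (SE 0.17) in C3H/HeJ and 0.79 (SE 0.17, limma adjusted p = 0.0821) in C3H/HeOuJ. Gsta2, an alpha-class enzyme, lay between 836 and 1334 over the 8 arrays, at 0.34 in C3H/HeJ and 0.45 in C3H/HeOuJ (SE 0.17 each), again with all ozone arrays above all air arrays.

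The mu class could not be read as single genes with confidence, since its genes are closely similar copies and many of its probe set names carry the suffixes for possible cross-hybridisation. One Gstm5 probe set had 619 and 283 in HeJ ozone, against 675 and 333 in HeJ air, and 1237 and 1106 in HeOuJ ozone, against 148 and 305 in HeOuJ air. It spread widely within the HeJ groups, which overlapped, and gave -0.18 in C3H/HeJ and 2.46 in C3H/HeOuJ (SE 0.51 each, limma adjusted p = 0.0763 in C3H/HeOuJ). The 2 other tested probe sets of Gstm5 gave -0.58 and -0.08 in C3H/HeOuJ, so the probe sets of this gene disagreed. Gstm1 gave -0.36 (SE 0.20) in C3H/HeOuJ on the bright probe set, with arrays apart, and -0.42 on the other, with arrays overlapping. Gstp1, the pi-class enzyme, lay between 6458 and 8409 over the 8 arrays, and its HeOuJ arrays overlapped, at -0.03.

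**Figure D2:**
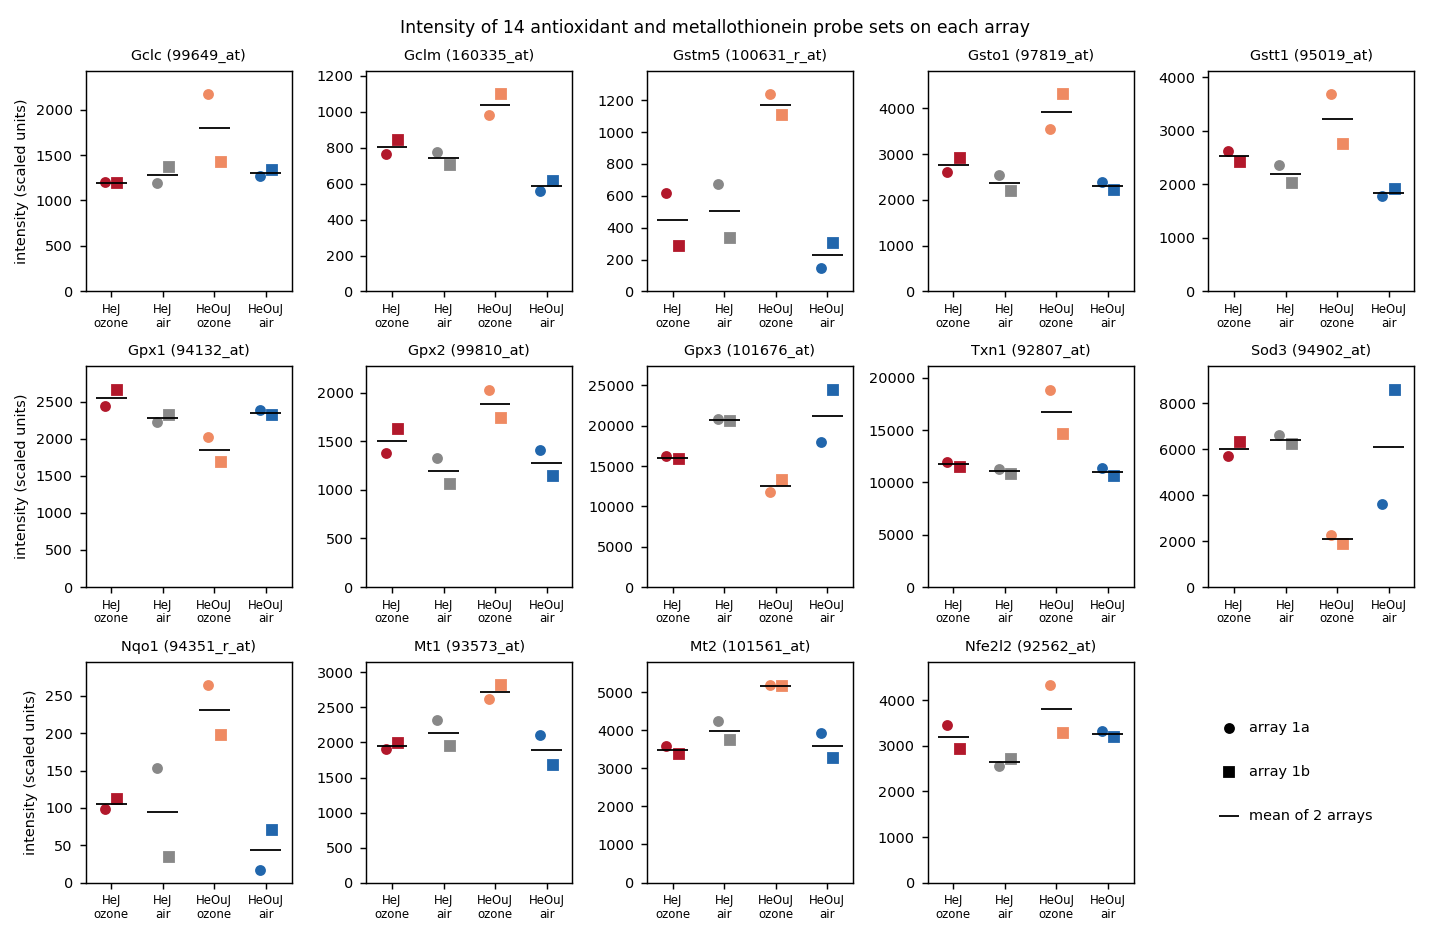
Intensity (linear axis from 0, scaled units) of 14 probe sets on each of the 8 arrays, with groups along the other axis. Circles are arrays 1a, squares arrays 1b and lines the mean of both. Gclm, Gsto1, Gstt1, Txn1, Mt1 and Mt2 have both HeOuJ ozone arrays above both HeOuJ air arrays, and Gpx3 and Sod3 have both below.

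The 4 glutathione peroxidases differed in the sign of their values. Gpx3 encodes the secreted form, found in plasma and in the fluid lining the airways. It had 16209.7 and 15883 in HeJ ozone, against 20799 and 20626 in HeJ air, and 11789.5 and 13248 in HeOuJ ozone, against 18027 and 24458 in HeOuJ air. All 4 ozone arrays were below all 4 air arrays, and the log2 fold changes were -0.37 (SE 0.19) in C3H/HeJ and -0.75 (SE 0.19, limma adjusted p = 0.122) in C3H/HeOuJ. The mean over the strains was -0.56 (SE 0.13, limma adjusted p = 0.273). Gpx2, a form of epithelial cells, had 1384 and 1625 in HeJ ozone, against 1329 and 1060.0 in HeJ air, and 2029 and 1737 in HeOuJ ozone, against 1412 and 1144 in HeOuJ air. Its ozone arrays were above its air arrays in each strain. Its log2 fold change was 0.34 (SE 0.18) in C3H/HeJ and 0.56 (SE 0.18) in C3H/HeOuJ. Gpx1, the common cytosolic form, had 2435 and 2658 in HeJ ozone, against 2227 and 2322 in HeJ air, and 2019 and 1683 in HeOuJ ozone, against 2386 and 2318 in HeOuJ air. Its arrays lay apart in opposite directions, at 0.16 in C3H/HeJ and -0.35 in C3H/HeOuJ (SE 0.14 each), and the HeOuJ value was -0.22 without HeOuJ ozone 1b. Gpx4, which reduces lipid peroxides in membranes, also lay apart in opposite directions, at -0.17 in C3H/HeJ and 0.45 in C3H/HeOuJ (SE 0.14 each).

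Of the thiol proteins, Txn1, the cytosolic thioredoxin, had 11939 and 11494 in HeJ ozone, against 11269 and 10809.9 in HeJ air, and 18845 and 14634 in HeOuJ ozone, against 11368 and 10615 in HeOuJ air. All 4 ozone arrays were above all 4 air arrays, though by little in C3H/HeJ, and the log2 fold changes were 0.09 (SE 0.16) in C3H/HeJ and 0.60 (SE 0.16, limma adjusted p = 0.146) in C3H/HeOuJ. Txnrd1, which reduces it, gave 0.24 (SE 0.14) in C3H/HeOuJ. Mitochondrial Txn2 and Prdx3 overlapped between the HeOuJ groups, at -0.08 and -0.13. Prdx2, an abundant peroxiredoxin of red cells, gave 0.38 (SE 0.15) in C3H/HeOuJ on its bright probe set. Of the erythroid markers, Hba-a1 was higher in HeOuJ ozone, and Slc4a1 and Alas2 had lower means there, as given above. Prdx4, the peroxiredoxin of the endoplasmic reticulum, gave 0.45 (SE 0.25). Srxn1, which repairs overoxidised peroxiredoxins, gave 0.70 and -0.33 on its 2 probe sets, and neither separated the HeOuJ groups.

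Superoxide dismutases turn superoxide into hydrogen peroxide, which catalase breaks down. Sod3, the extracellular enzyme that is bound to the matrix of lung and vessel walls, had 5711 and 6312 in HeJ ozone, against 6604 and 6203 in HeJ air, and 2281 and 1855 in HeOuJ ozone, against 3617 and 8576 in HeOuJ air. Both HeOuJ ozone arrays were below the other 6, but the 2 HeOuJ air arrays also differed widely from each other. The log2 fold change was -0.09 (SE 0.33) in C3H/HeJ and -1.44 (SE 0.33, limma adjusted p = 0.0999) in C3H/HeOuJ. The HeOuJ value was -0.81 without HeOuJ air 1b and -2.06 without HeOuJ air 1a. Mitochondrial Sod2 gave 0.27 (SE 0.19) in C3H/HeJ and cytosolic Sod1 gave 0.32 (SE 0.16) in C3H/HeOuJ, each with ozone arrays above air arrays. The 2 probe sets of Cat gave -0.24 and -0.33 in C3H/HeOuJ, both with arrays apart on the lower side.

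Nqo1, the quinone reductase that serves as a common readout of NRF2, was dim. One probe set had 98.4 and 111 in HeJ ozone, against 154 and 34.3 in HeJ air, and 264 and 198 in HeOuJ ozone, against 16.9 and 71 in HeOuJ air. The log2 fold change was 0.02 (SE 0.42) in C3H/HeJ and 1.70 (SE 0.42, limma adjusted p = 0.118) in C3H/HeOuJ, with 1 air array of each strain raised to the floor. The other had 113 and 161 in HeJ ozone, against 101.3 and 223 in HeJ air, and 269 and 83.1 in HeOuJ ozone, against 121 and 188 in HeOuJ air. It overlapped in both strains, at -0.16 in C3H/HeJ and -0.01 in C3H/HeOuJ, so the 2 probe sets disagreed. Nfe2l2 itself had 3457 and 2929 in HeJ ozone, against 2568 and 2722 in HeJ air, and 4331 and 3281 in HeOuJ ozone, against 3338 and 3201 in HeOuJ air. Its log2 fold changes were 0.27 in C3H/HeJ, with arrays apart, and 0.21 in C3H/HeOuJ, with arrays overlapping (SE 0.16 each). The HeOuJ value was 0.0053 without HeOuJ ozone 1a and 0.41 without HeOuJ ozone 1b. Keap1, which encodes the inhibitor, was at the floor on several arrays, with 35.7 to 178 across them.

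Mt1 and Mt2, the metallothioneins made in most tissues, had ozone values of the same sign as each other in each strain. Mt1 had 1907 and 1986 in HeJ ozone, against 2319 and 1957 in HeJ air, and 2626 and 2816 in HeOuJ ozone, against 2103 and 1683 in HeOuJ air. Mt2 had 3586 and 3383 in HeJ ozone, against 4244 and 3738 in HeJ air, and 5183 and 5174 in HeOuJ ozone, against 3940.4 and 3264 in HeOuJ air. In C3H/HeJ the log2 fold changes were -0.13 for Mt1, with overlapping arrays, and -0.19 for Mt2, with the ozone arrays below the air arrays. In C3H/HeOuJ both ozone arrays were above both air arrays for each gene, at 0.53 for Mt1 (SE 0.15, limma adjusted p = 0.164) and 0.53 for Mt2 (SE 0.14, limma adjusted p = 0.133). The difference between the strains' ozone effects was -0.72 (SE 0.19, limma adjusted p = 0.241) for Mt2 and -0.66 (SE 0.22, limma adjusted p = 0.321) for Mt1.

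The windows of both metallothioneins are shown since the genes are known targets of metal response elements. They are chr8:94178839-94179088 for Mt1 and chr8:94172368-94172617 for Mt2, plus strand of GRCm38.p6, from RefSeq, marked in capitals as for Gclm. Within these 250 bases, Mt1 holds 1 metal match, and Mt2 holds 3 with 1 antioxidant match. Bases downstream of the annotated starts were not searched, so the counts do not stand for either gene's full set of elements.
Mt1: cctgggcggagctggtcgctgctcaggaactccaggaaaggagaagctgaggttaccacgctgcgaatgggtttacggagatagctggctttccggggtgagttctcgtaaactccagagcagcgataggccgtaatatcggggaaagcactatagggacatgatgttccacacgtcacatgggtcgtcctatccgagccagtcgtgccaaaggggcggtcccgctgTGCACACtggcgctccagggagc
Mt2: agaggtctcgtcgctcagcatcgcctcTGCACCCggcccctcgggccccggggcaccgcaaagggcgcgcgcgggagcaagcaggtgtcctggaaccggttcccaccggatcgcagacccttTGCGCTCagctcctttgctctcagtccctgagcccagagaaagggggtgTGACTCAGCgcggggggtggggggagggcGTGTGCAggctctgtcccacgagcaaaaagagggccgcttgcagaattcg
Over the list, 40 of the 47 genes had a window, and some had several. A match in any window of a gene counted, in the list and over all genes alike. The antioxidant core was found in 11 of the 40 genes (27.5%), against 11.5% of all 27025 genes. The metal core was found in 12 (30.0%), against 23.8%. At least 3 metal matches, as in Mt2, were found in 1.46% of all genes. A match describes letters only and is no site of binding. Among others, no antioxidant match was found in the windows of Gsto1, Gstt1, Gsta2, Gpx2, Gpx3, Txn1, Srxn1 and Nqo1. This says only that these letters are not there, also for Nqo1, the common readout of NRF2.

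**Figure D3:**
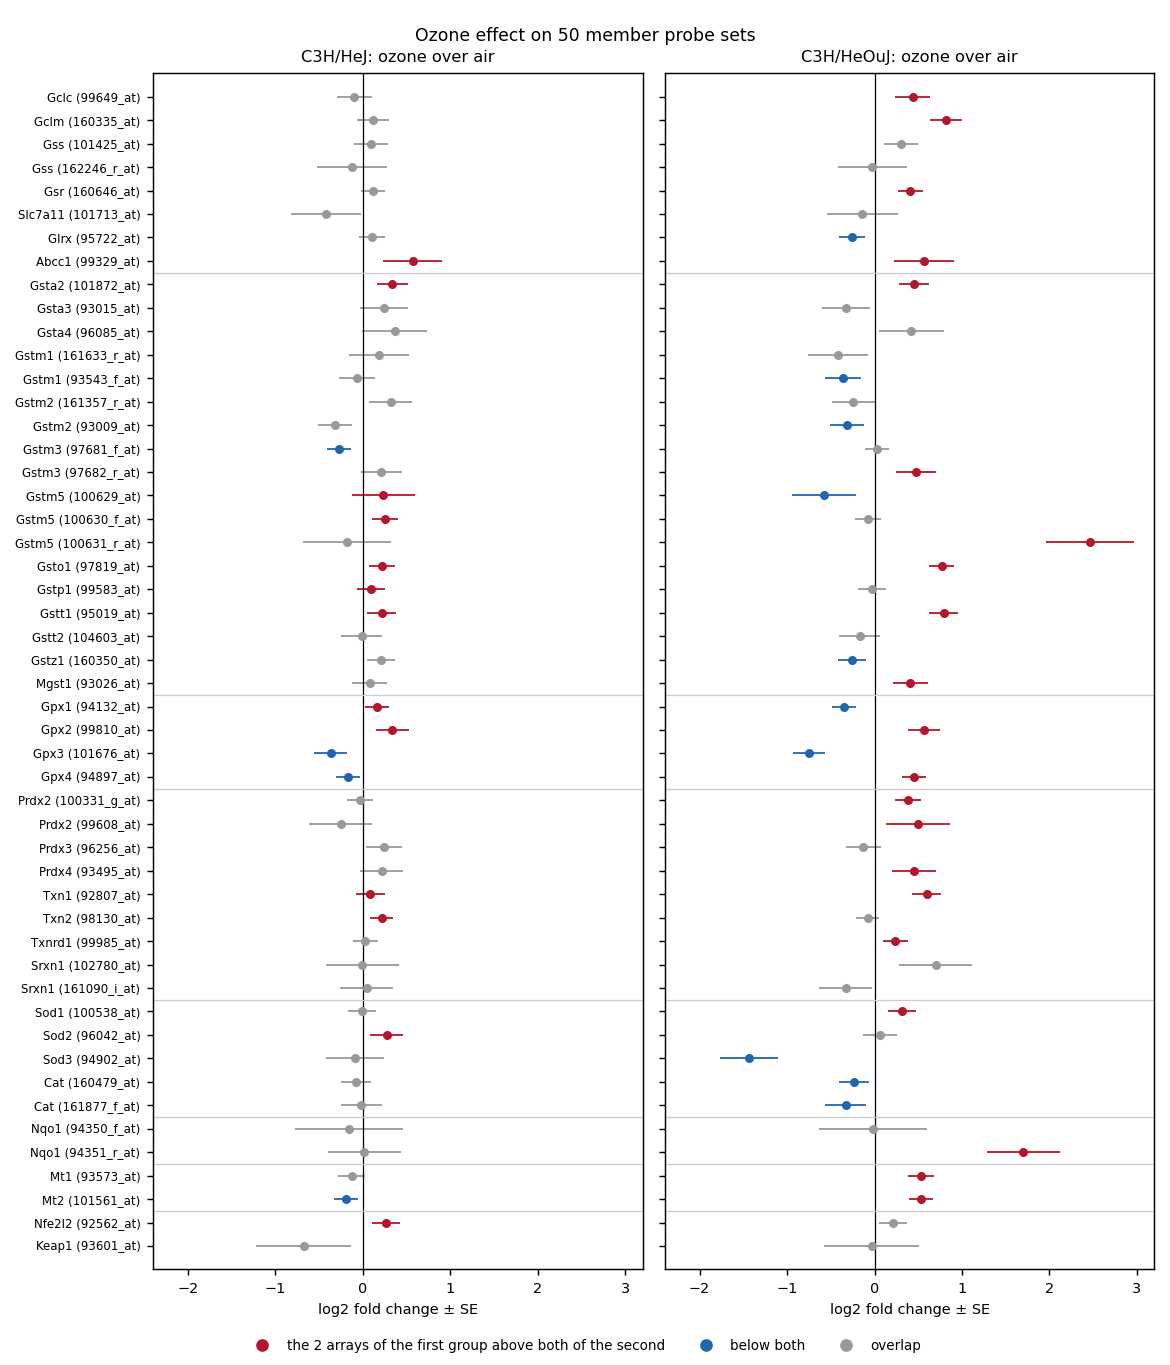
Log2 fold changes of ozone over air with moderated standard errors for each tested probe set of the list, C3H/HeJ and C3H/HeOuJ side by side and grouped by role. Gsto1, Gstt1 and Gclm lie between 0.12 and 0.22 in C3H/HeJ and between 0.77 and 0.82 in C3H/HeOuJ. Red points have both ozone arrays above both air arrays, blue points below, and grey points overlap.

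The strains were then compared directly, with no exposure time stated for C3H/HeJ. The ozone effects of the 50 members in C3H/HeJ and C3H/HeOuJ had a Pearson correlation of 0.07 across probe sets (Spearman 0.09), and 28 of the 50 (56%) had the same sign. Over all 10953 probe sets the correlations were -0.04 and -0.06, and 48.3% had the same sign. These are probe sets of the same arrays, not independent replicates. The interaction, C3H/HeJ ozone effect minus C3H/HeOuJ ozone effect, took 0 of 50 members at the adjusted threshold by limma. At an unadjusted p under 0.05 it took 2 on the higher side and 8 on the lower, against 6.3% and 5.13% of all probe sets. The 8 are Mt2, Mt1, Gpx4, Gclm, Gsto1, Gstt1 and the Gstm5 and Nqo1 probe sets with the suffix r, and the 2 are Sod3 (1.34, SE 0.47, limma adjusted p = 0.341) and Gpx1 (0.51, SE 0.19, limma adjusted p = 0.379).

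Across both strains, the 4 ozone arrays were above all 4 air arrays for 5 members (Abcc1, Gsta2, Gsto1, Gstt1 and Txn1), against 2.01% of all probe sets. They were below for 1 (Gpx3), against 1.22% of all. The mean ozone effects of these 6 were 0.57, 0.40, 0.49, 0.50, 0.34 and -0.56, in the same order. At an unadjusted p under 0.05 the mean ozone effect took 10 members higher and 3 lower, against 4.71% and 4.54% of all probe sets. The limma adjusted p-values of the 6 lay between 0.249 and 0.529.

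In ozone, C3H/HeJ minus C3H/HeOuJ took 12 of the 50 members at an unadjusted p under 0.05, 4 higher and 8 lower, against 8.9% and 9.11% of all probe sets. The HeJ ozone arrays lay above the HeOuJ ozone arrays for 11 members and below for 15, against 21.6% and 24.4% of all probe sets. Sod3 was higher in HeJ ozone, with a log2 difference of 1.55 (SE 0.33, limma adjusted p = 0.0687). Without either HeOuJ air array this adjusted p was 0.0365 or 0.0359, the only settings in which a member passed this comparison. Gpx1 was higher by 0.46 (SE 0.14, limma adjusted p = 0.136). Mt2 and Gclc were lower in HeJ ozone, at -0.57 (SE 0.14, limma adjusted p = 0.0884) and -0.56 (SE 0.20, limma adjusted p = 0.201). The Gclc difference was -0.26 without HeOuJ ozone 1a and -0.86 without HeOuJ ozone 1b. In air 2 members passed the unadjusted threshold, both higher in C3H/HeJ (2.58% of all probe sets, and 3.12% lower), namely a Prdx2 probe set (0.38, SE 0.15) and the Gstm5 probe set already described. The HeJ air arrays lay above the HeOuJ air arrays for 9 members and below for 4, against 15.5% and 17.1% of all probe sets. Over both exposures 1 member was higher and 1 lower at an unadjusted p under 0.05, against 6.35% and 6.68% of all probe sets, and no member had its 4 C3H/HeJ arrays apart from its 4 C3H/HeOuJ arrays, against 2.0% higher and 2.7% lower. The 2 were Sod3 and Nfe2l2. Nfe2l2 was lower in C3H/HeJ at -0.28 (SE 0.11, limma adjusted p = 0.354), and -0.18 without HeOuJ ozone 1a. Its arrays in air were apart in the same direction.

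**Figure D4:**
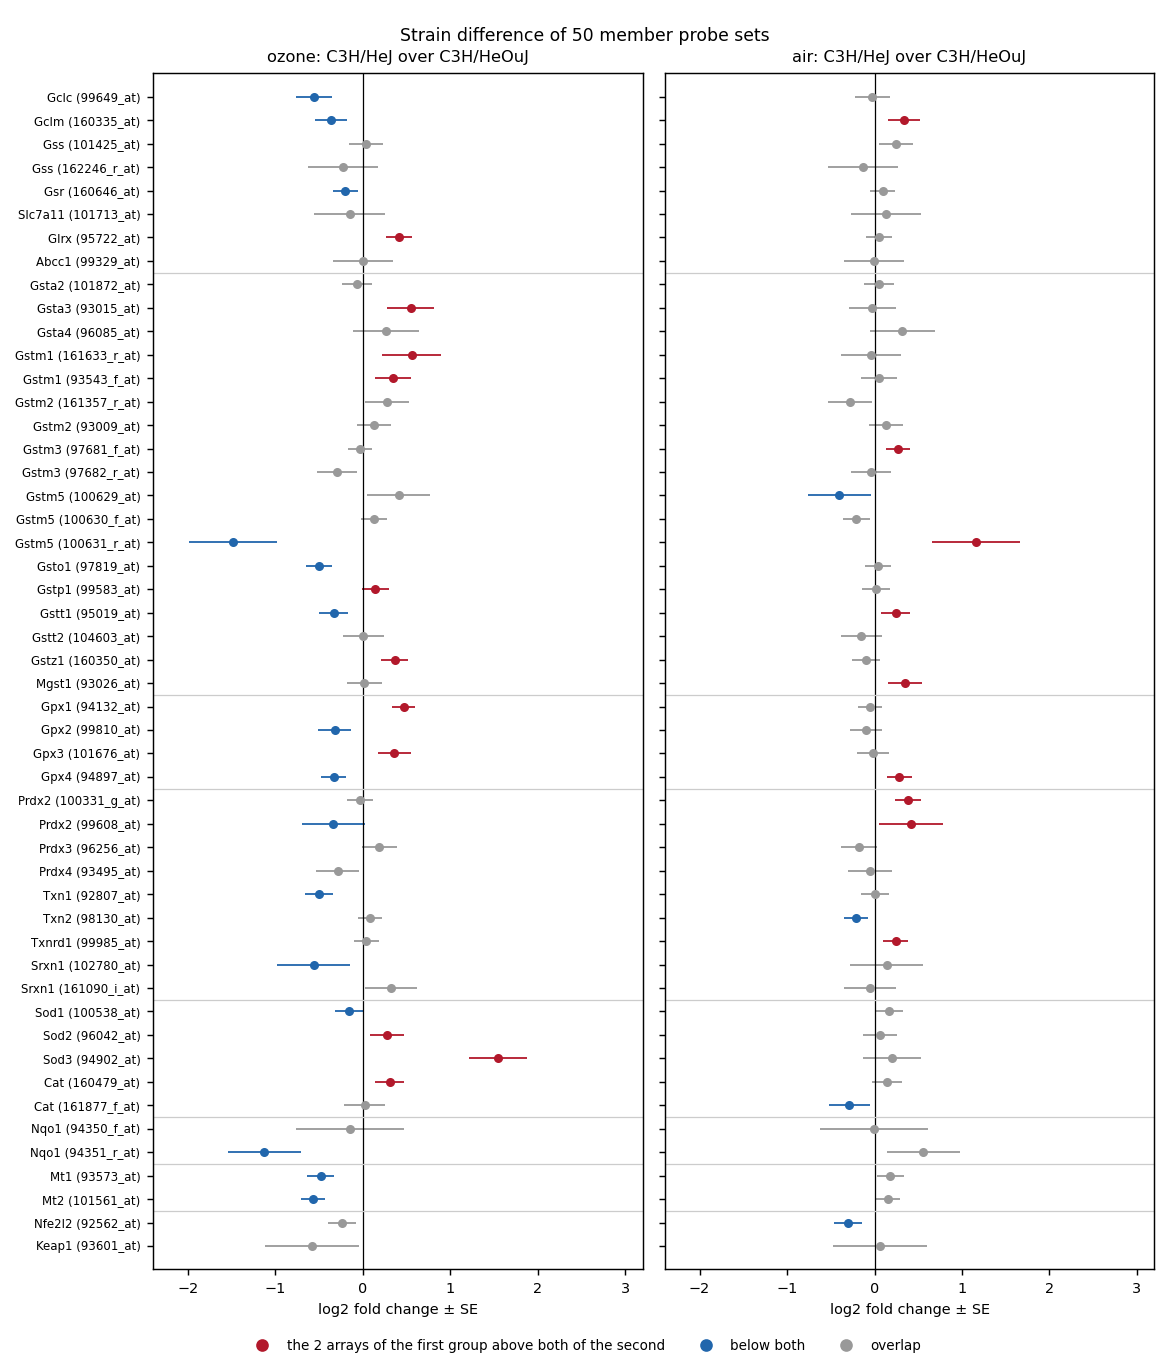
Log2 differences of C3H/HeJ minus C3H/HeOuJ in ozone (left) and in air (right) with moderated standard errors, grouped by role and coloured as for the ozone values. Sod3 reaches 1.55 in ozone and 0.20 in air, and Mt2 -0.57 in ozone and 0.15 in air.

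The actin ratio given above went into another fit. With the actin 5'/3' ratio as a covariate, the HeOuJ ozone effects of Gsto1, Gstt1 and Gclm were 0.42 (SE 0.37), 0.45 (SE 0.42) and 0.55 (SE 0.47). Those of Mt1 and Mt2 were 0.18 (SE 0.38) and 0.32 (SE 0.36), and those of Sod3 and Gpx3 were -1.78 (SE 0.86) and -0.76 (SE 0.51). That of Gpx2 was -0.05 (SE 0.42) and that of the Nqo1 probe set with the larger value -0.14 (SE 0.80), so both turned sign. Each group had its own mean in this fit, so the slope on the ratio came only from differences within groups. The largest of these was in HeJ air, with ratios of 0.498 and 0.432. The ratios of HeOuJ ozone, 0.766 and 0.756, lay above those of all other arrays, so the adjusted values there are extrapolated. The sign changes are therefore no measure of RNA quality, whose part in the values was not tested.

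A wider list of the same pathways held 64 further genes, of which 44 were tested on 56 probe sets. None passed in any comparison by limma, while at an unadjusted p under 0.05 the HeOuJ ozone comparison took 5 of the 56 higher and 3 lower, against 7.77% and 7.73% of all probe sets. For C3H/HeJ minus C3H/HeOuJ in ozone it took 3 higher and 13 lower, against 8.9% and 9.11% of all probe sets. Mgst3, a microsomal transferase, had 1908 and 2291 in HeJ ozone, against 1675 and 1342 in HeJ air, and 3111 and 3034 in HeOuJ ozone, against 2102 and 2088 in HeOuJ air. It was apart in both strains, at 0.48 in C3H/HeJ and 0.55 in C3H/HeOuJ (SE 0.15 each), with a mean of 0.52 (SE 0.11, limma adjusted p = 0.249). Me1, a source of NADPH, was higher in HeJ ozone than in HeOuJ ozone by 0.75 (SE 0.18, limma adjusted p = 0.0832).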

How the data were processed

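The deposited intensity values are linear, with a single value for each probe set on each array, and were used as the authors gave them. They had a 2% trimmed mean of 799.87 to 799.88 on every array, so they had been scaled already. For the software, a name is not given in the labels used here. Values under the 20th percentile of all values (69.6, or 6.12 on the log2 scale) were set to it before taking log2. Probe sets brighter than this on at least 2 of 8 arrays were tested (10953), and 1469 were not. Gene names came from the platform annotation, updated for 12 symbols; a single gene is named for 10833 probe sets, more than 1 for 396, and no gene for 1193. One model of 4 group means was fitted with limma 3.58.1 under R 4.3.3, with an intensity trend and 4 residual degrees of freedom, with Benjamini-Hochberg adjustment across every probe set tested. The model was tested on simulated data. The members, lists and rules were chosen with earlier results of these data known. Values of every array are given for the 12 genes of smallest p in any of the 7 comparisons and for Mt1, Mt2, Gclc, Gclm, Gpx3, Sod3, Nqo1 and Nfe2l2; other members are given by range, count or fold change, and up to 4 other pathway genes of smallest p in a comparison could be named. The replicate letters 1a and 1b do not pair arrays by any label, and deviations of same-letter arrays correlated between -0.01 and 0.14. Alternatives were quantile and median scaling, a 10th percentile floor, no filter, no trend, only the arrays compared, the letters as block, the actin ratio as covariate, 1 probe set per gene and leaving out each array. Tables and figures were made in Python 3.11.15 with pandas 2.3.3 and matplotlib 3.10.9.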

Additional observations from a re-analysis of the deposited data

How the results depend on the processing

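No member passed at an adjusted p of 0.05 under any alternative except when a HeOuJ air array was left out: leaving out each array in turn gave 0 to 1 members for C3H/HeJ minus C3H/HeOuJ in ozone and 0 to 1 for its mean over both exposures. The 1 was Sod3 each time, without HeOuJ air 1a or 1b in ozone (limma adjusted p = 0.0365 and 0.0359) and without 1b over both exposures (limma adjusted p = 0.0403); with fewer arrays the spread of the other groups stands in for a lone array. With the replicate block, 0 members passed in every comparison, and over all probe sets 57 were called for ozone in C3H/HeOuJ (50 without the block), 185 for C3H/HeJ minus C3H/HeOuJ in ozone (107 without) and 29 for its mean (17 without); the arrays share only a letter. For single genes in C3H/HeOuJ, the ozone effect turned with the actin covariate to -0.14 for one Nqo1 probe set, to 1.13 for the other and to -0.045 for Gpx2, and the second Nqo1 value ran from -0.86 to 0.83 when each array was left out; the cause was not tested. The covariate, whose slope came only from differences within groups, also gave 1.41 (SE 1.26) for the Gstm5 probe set, against 2.46. Over the named genes, 362 values kept direction and side of the threshold, 5 turned and 2 came to pass. Under quantile and median scaling, the list's median moved by less than 0.096, the spread between replicates. Median scaling nevertheless turned that of the strain difference in ozone from -0.02 to 0.02, and that of its mean over both exposures from -0.01 to 0.02. For the other alternatives no statement on the list's median is made. Dim probe sets, such as Nqo1, Keap1 and Slc7a11, have values near the floor.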

Other observations

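Prdx1, a cytosolic peroxiredoxin, was measured only on 2 probe sets that the annotation shares with Gm21399, so it stood outside the rule and no value can be given to either gene alone. One of them had intensities of 12347 and 12580.4 in HeJ ozone, against 12570.2 and 11818 in HeJ air, and of 6146 and 7221 in HeOuJ ozone, against 12597 and 11907 in HeOuJ air. It fell in C3H/HeOuJ by 0.88 on the log2 scale (SE 0.14, limma adjusted p = 0.0483) and was higher in HeJ ozone than in HeOuJ ozone by 0.90 (SE 0.14, limma adjusted p = 0.0454), while the interaction was 0.91 (SE 0.20, limma adjusted p = 0.184). The other had 13439 and 13032 in HeJ ozone, against 12656 and 12992 in HeJ air, and 8224 and 8624 in HeOuJ ozone, against 13964 and 12002 in HeOuJ air, with a log2 fold change in C3H/HeOuJ of -0.62 (SE 0.14, limma adjusted p = 0.0999).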
